A study of Mus musculus with 72 samples.

Results

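The Hox cluster genes encode homeodomain transcription factors and lie in 4 chromosomal clusters, named A to D. Every gene symbol of the form Hoxa, Hoxb, Hoxc or Hoxd followed by a number was taken, with the brightest probe set where a symbol had several. This gave 37 genes of the 19938 with a probe set of their own, 10 in cluster A and 9 in each of clusters B, C and D, and each of the 37 had 1 probe set. Hoxb8 is not among them, since it was measured only by a probe set that it shares with Hoxb7, whose values are given apart. The rule picks members by gene name, and since each had 1 probe set, brightness decided none of them. It was set with earlier results of these data known.

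The 72 arrays (Affymetrix Mouse Gene 1.0 ST, total RNA) measured bone marrow of a mouse form of acute promyelocytic leukaemia (APL), in which the retinoic acid receptor RARA is fused to another protein. Transgenic mice, labelled with a wild type background, carried either PML/RARA (4 untreated and 8 treated with retinoic acid, RA, both at 6 h and at 12 h) or PLZF/RARA (2 untreated and 4 treated at either time). In the viral model every array is labelled PML/RARA, and the background is wild type for Pml or pml-/-, here called Pml null. Either viral background had 4 untreated and 8 treated arrays for the 6 h point but 2 untreated and 4 treated for the 12 h point. The sources used here give no dose of RA, no age, no promoter for the transgenes and no number of animals. Whether 2 arrays of a group stem from different mice is also not said, so every p-value below measures the spread between these arrays, which may be technical. The 4 labelled batches are not shared between the models: batches 1 and 2 hold the transgenic and batches 3 and 4 the viral arrays. Model and batch therefore cannot be told apart, and no test crosses the models.

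The data bear the labels out in part. Mpo, a granule enzyme of promyelocytes, read 13.28 to 13.42 in the 4 untreated transgenic PML/RARA arrays at 6 h, and the mean of the promyelocyte markers (5 of 5 measured) lay between 11.07 and 13.04 on every array. That mean hides differences between the markers. In untreated Pml null against Pml wild type marrow Ms4a3 (-5.77 on the log2 scale), Prtn3 (-1.17) and Elane (-1) were lower. Ctsg (0.32) and Mpo (0.19) were higher there. Cyp26a1, the enzyme that breaks down RA, rose in all 8 RA comparisons, by 3.36 to 5.76 on the log2 scale; in PLZF/RARA at 6 h the rise of 3.36 ± 0.74 (SE) passed with both untreated arrays but not with either alone (3.23, adjusted p = 0.205, without untreated replicate 1; 3.49, adjusted p = 0.109, without replicate 2). Rarb, the receptor gene that RA induces through its own promoter, rose by 0.29 ± 0.09 in transgenic PML/RARA at 12 h (adjusted p = 0.0128). Of the 9 RA target genes listed, 4 to 6 rose and 0 fell in each comparison. Pml was not lower on the arrays labelled Pml null: untreated arrays read 9.08 to 9.52 against 9.20 to 9.46 for Pml wild type (difference -0.04 ± 0.13, adjusted p = 0.916). The labels do not place the deletion, and where the probes of the single Pml probe set lie relative to it was not analysed here, so the value does not settle that label, which is used as given. In bone marrow as a whole, fewer cells of a type and less RNA per cell cannot be told apart.

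Hox genes set positional identity along the body axis, and within a cluster they are arranged in the order in which they are switched on, from group 1 at one end to group 13 at the other. RA is a classical activator of the early end, through receptor binding sites beside genes such as Hoxb1 and Hoxb4. In the marrow, Hoxa9 and its partner Meis1 are active in stem and progenitor cells and fall as myeloid cells mature, and high Hoxa expression is known from leukaemias with MLL fusions, while APL in patients is known for low HOX expression.

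To show what an RA-responsive start site looks like beside those of the clusters, the RefSeq promoter windows of Cyp26a1 and Rarb, 2 textbook RA targets, are printed with those of Hoxb4, Hoxa5 and Hoxa9 (build GRCm38.p6, 250 bases before to 50 bases after the start, 5′ to 3′ on the gene's strand). Capitals mark the direct repeat of 2 RA receptor hexamers with its spacer of 5 bases in Cyp26a1 and Rarb, and the single hexamer in the Hox windows. The hexamer was searched on both strands in its consensus form AGGTCA. It was also searched, in the same way and with equal weight, as GGGTCA. Among the other forms that receptors of this family are known to accept, AGTTCA was searched as well. The remaining form, again taken on both strands, was GGTTCA. The windows are chr19:37697558-37697857 (plus strand) for Cyp26a1, chr14:16575427-16575726 (minus) for Rarb, chr11:96318017-96318316 (plus) for Hoxb4, chr6:52204538-52204837 (minus) for Hoxa5 and chr6:52227321-52227620 (minus) for Hoxa9.
Cyp26a1: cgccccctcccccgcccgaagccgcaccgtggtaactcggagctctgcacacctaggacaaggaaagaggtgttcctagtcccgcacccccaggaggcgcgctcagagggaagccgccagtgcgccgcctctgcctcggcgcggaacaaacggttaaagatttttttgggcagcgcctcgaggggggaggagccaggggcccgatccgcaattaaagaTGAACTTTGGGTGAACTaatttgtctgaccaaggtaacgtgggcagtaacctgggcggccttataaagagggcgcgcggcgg
Rarb: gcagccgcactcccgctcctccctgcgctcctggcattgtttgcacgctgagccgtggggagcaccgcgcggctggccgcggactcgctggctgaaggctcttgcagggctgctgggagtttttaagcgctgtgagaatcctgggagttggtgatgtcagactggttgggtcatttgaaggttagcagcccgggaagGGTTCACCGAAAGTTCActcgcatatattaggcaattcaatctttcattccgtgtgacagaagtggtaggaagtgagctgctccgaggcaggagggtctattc
Hoxb4: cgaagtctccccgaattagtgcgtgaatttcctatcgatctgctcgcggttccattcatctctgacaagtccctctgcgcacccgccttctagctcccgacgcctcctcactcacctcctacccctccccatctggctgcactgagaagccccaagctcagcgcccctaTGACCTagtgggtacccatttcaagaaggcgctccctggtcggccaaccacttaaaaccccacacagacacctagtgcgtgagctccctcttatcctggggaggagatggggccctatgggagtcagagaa
Hoxa5: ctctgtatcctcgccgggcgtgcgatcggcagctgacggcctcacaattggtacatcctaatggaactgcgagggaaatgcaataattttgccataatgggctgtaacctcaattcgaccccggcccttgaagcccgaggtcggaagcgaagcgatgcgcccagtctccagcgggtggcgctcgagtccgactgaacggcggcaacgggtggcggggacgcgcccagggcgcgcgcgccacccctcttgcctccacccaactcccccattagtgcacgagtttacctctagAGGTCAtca
Hoxa9: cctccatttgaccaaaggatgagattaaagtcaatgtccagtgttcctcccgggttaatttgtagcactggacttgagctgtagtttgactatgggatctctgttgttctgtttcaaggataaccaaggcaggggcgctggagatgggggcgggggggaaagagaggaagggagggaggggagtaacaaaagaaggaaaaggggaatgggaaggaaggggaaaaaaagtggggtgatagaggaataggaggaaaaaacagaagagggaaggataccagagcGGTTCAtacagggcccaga
Relative to the start, the repeats begin at -32 in Cyp26a1 and at -53 in Rarb, and the single hexamers at -81 in Hoxb4, 41 in Hoxa5 and 31 in Hoxa9. The table held 23 windows for 21 of the 37 members. At least 1 hexamer lay in 11 of the 23 Hox windows (47.8%) and in 14358 of all 32851 windows (43.7%). The printed Hox windows all held 1, whereas the windows of Hoxb1 and Hoxa10, not printed, held no hexamer. A direct repeat with a spacer of 5 bases lay in 0 Hox windows against 0.0974% of all windows, and one with a spacer of 2 bases in 0 against 0.268%. With shares this low, nearly any set of 23 windows would hold 0, so these counts do not set the Hox windows apart. Sequence outside the windows was not searched. The Hox windows held a median of 15 CpG dinucleotides against 7 over all windows, and a median GC content of 58% against 52.7%. Hoxb2 and Hoxc6 have no entry in the table.

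Across the whole experiment the Hox cluster genes hardly varied. The members covered the early, middle and late ends of all 4 clusters. The SD of a member over the 72 arrays lay between 0.121 (Hoxd11) and 0.207 (Hoxb4) log2 units, with a median of 0.15, and 37 of 37 members lay below the median of all genes, 0.208. Hoxb4 stood at the 49.7th percentile of all genes by this SD and Hoxd11 at the 8.4th. Between the lowest and highest of the 16 group means a member spanned 0.21 to 0.58 log2 units, with a median of 0.31 against 0.53 over all genes. No member spanned more than 1 log2 unit, whereas 4316 genes (21.6%) did. The largest spans were those of Hoxb9 (0.58), Hoxd3 (0.56) and Hoxb4 (0.49). Hoxb9, Hoxd3 and any other Hox gene named below that was neither called nor among Hoxb1, Hoxb4, Hoxa5, Hoxa7, Hoxa9 and Hoxa10 was chosen after its values were seen.

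For scale, the 1015 olfactory receptor genes on the array, which are known for expression in the nose, had a median SD of 0.134 and a median span of 0.28, and 0.788% of them spanned more than 1 log2 unit; this set was picked after the Hox values were seen. The deposited values carry no detection call, so whether a Hox probe set read above background was not tested. Means of the members over all arrays ran from 4.40 to 7.21, and since each probe set has its own affinity these levels give no order of the genes.

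**Figure D1:**
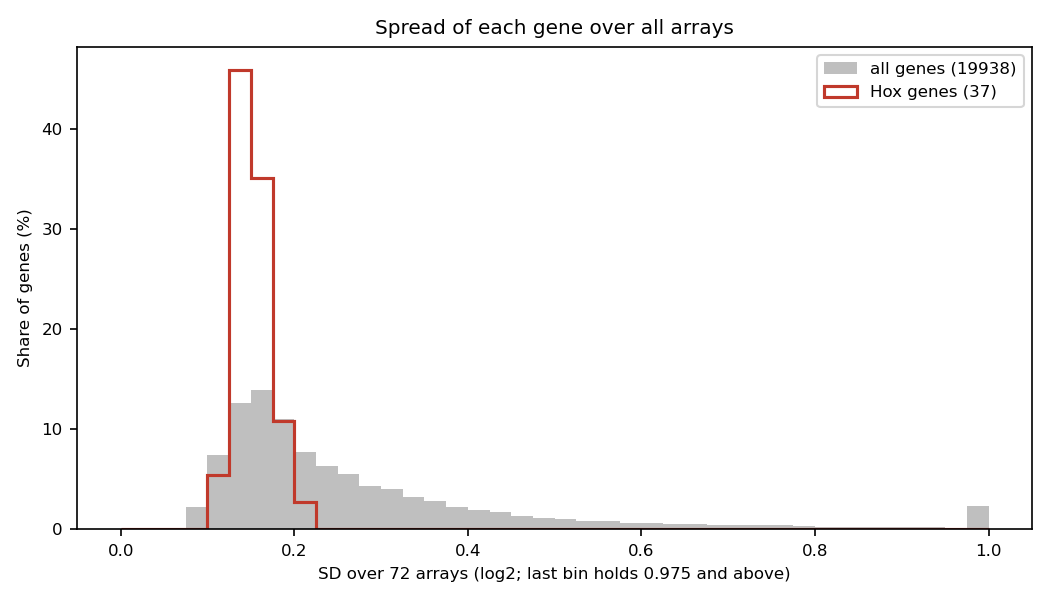
Histogram of the SD of each gene over the 72 arrays (x axis, log2 units; y axis, share of genes), grey for all 19938 genes and red for the 37 Hox cluster genes; the last bin gathers all larger SDs. The Hox genes sit between 0.121 and 0.207, left of the all-gene median of 0.208.

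The low point of a member's group means fell in untreated PLZF/RARA marrow at 6 h for 16 of the 37 genes and in untreated PML/RARA marrow at 6 h for 6. The high point fell in RA-treated viral Pml wild type marrow at 6 h for 11 and in RA-treated PML/RARA marrow at 12 h for 8. These extremes moved with the faint end of whole arrays. The lower quartile of all genes on an array ran from 5.31 to 5.75, and the mean of the 37 members from 5.46 to 5.95. The array with the highest member mean (RA replicate 3 of viral Pml wild type at 6 h) also had the highest lower quartile. Of the 10 arrays with the highest member mean, 8 were among the 10 with the highest lower quartile, and of the 10 with the lowest, 7 were among the 10 lowest. The part of the lower quartile in the Hox values was not tested beyond the quantile normalization given below.

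**Figure D2:**
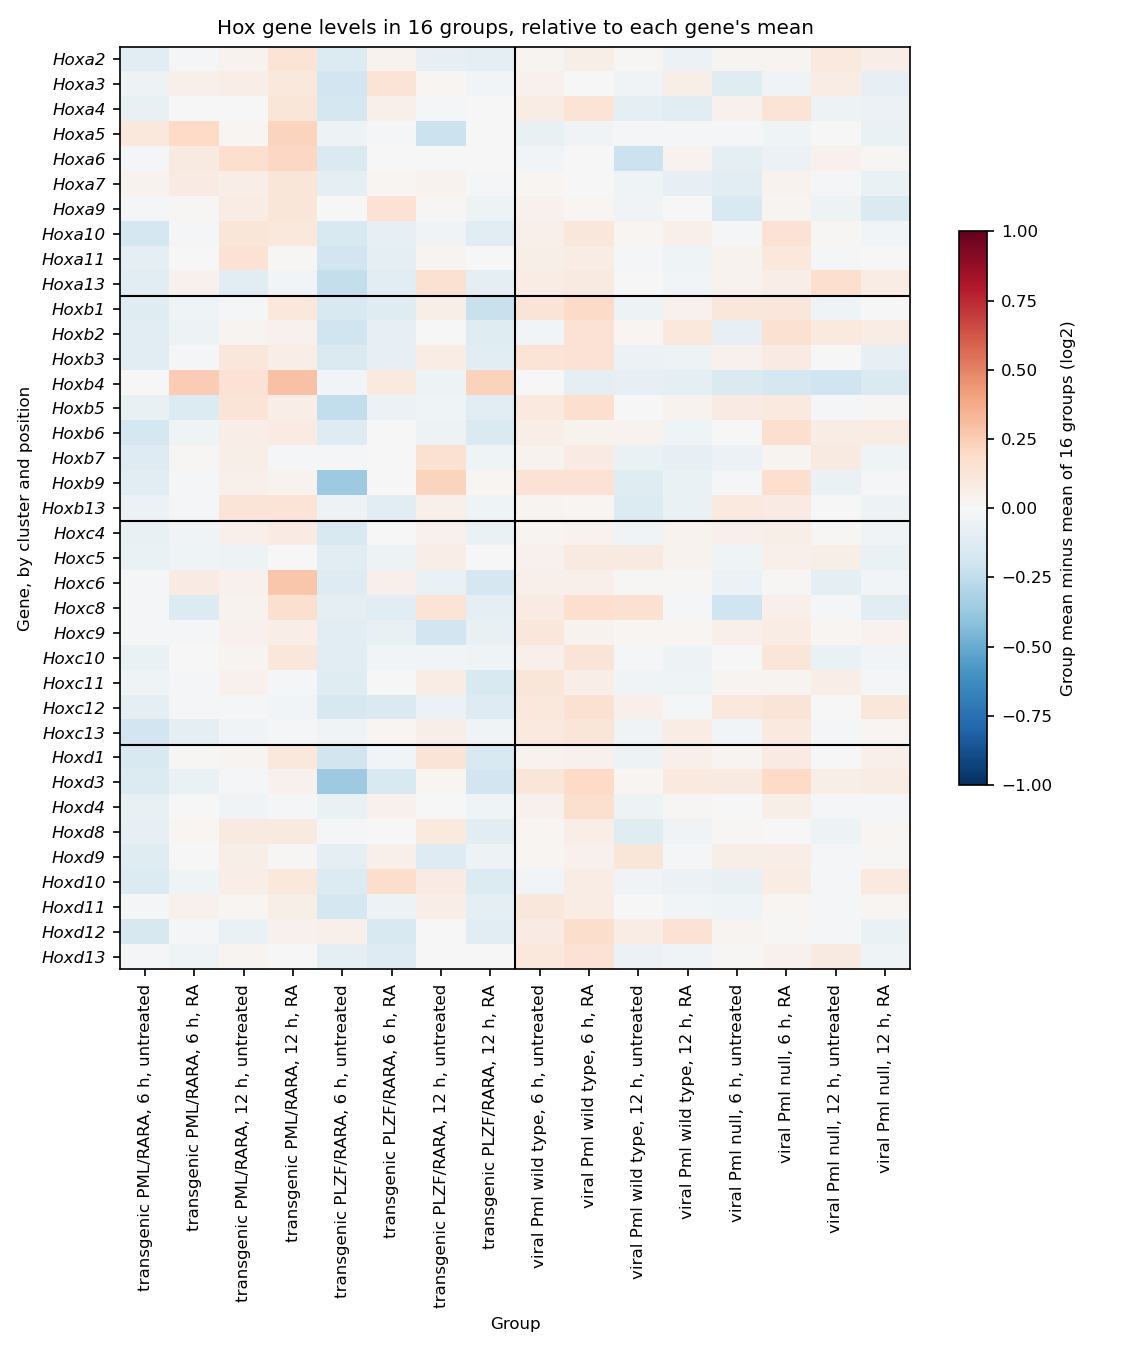
Heat map of the 37 Hox genes (rows, by cluster and position) in the 16 groups (columns), each cell the group mean minus the mean of that gene over the 16 groups, in log2 units on a colour scale from -1 to 1. Nearly all cells are pale, since no gene spans more than 0.58 between its lowest and highest group.

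In the A cluster (chr6:52162417-52260880), Hoxa9, the gene most tied to myeloid leukaemia, had group means between 5.32 and 5.62. In untreated transgenic PML/RARA marrow it read 5.38, 5.53, 5.53 and 5.39 at 6 h and 5.55, 5.54, 5.50 and 5.63 at 12 h. After RA it read 5.43 to 5.57 (median 5.47) at 6 h and 5.50 to 5.69 (median 5.60) at 12 h, so treated and untreated arrays overlapped at both times. Its RA changes were 0.02 and 0.04 in PML/RARA, 0.14 and -0.07 in PLZF/RARA, -0.02 and 0.03 in viral Pml wild type and 0.18 (adjusted p = 0.193) and -0.09 in viral Pml null, at 6 h and 12 h in turn. Hoxa10, which acts in early myeloid and lymphoid progenitors, had group means of 5.52 to 5.84 and Hoxa7, another target of MLL fusions, 6.41 to 6.63. No RA change of either exceeded 0.16 in size, and none passed the test. Hoxa5, which influences the choice between erythroid and myeloid fates, had group means of 4.56 to 5.0. At 12 h its untreated PML/RARA arrays read 4.78, 4.87, 5.04 and 4.51 and the RA arrays 4.81 to 5.17 (median 5.04), overlapping; in PLZF/RARA 4.55 and 4.57 untreated stood below 4.66, 4.74, 4.82 and 4.90 after RA, a difference of 0.22 ± 0.12 (adjusted p = 0.401). At that time 23.5% of all genes in PLZF/RARA had no overlap between the 2 untreated and 4 RA arrays. The other members of this cluster spanned 4.25 to 4.52 (Hoxa2), 4.78 to 5.10 (Hoxa3), 6.78 to 7.09 (Hoxa4), 5.65 to 6.07 (Hoxa6), 4.68 to 5.02 (Hoxa11) and 5.73 to 6.13 (Hoxa13) in group means, all within 0.42 log2 units.

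The B cluster (chr11:96194316-96368254) holds Hoxb4, known for expanding haematopoietic stem cells when overexpressed, and Hoxb1, a direct RA target in the embryo. Group means of Hoxb4 ran from 5.26 in untreated viral Pml null marrow to 5.75 in RA-treated transgenic PML/RARA marrow, both at 12 h. Those of Hoxb1 ran from 6.59 to 7.0. Hoxb9, a gene of the late end, had its lowest mean (6.20) in untreated PLZF/RARA marrow at 6 h and its highest (6.78) in untreated PLZF/RARA marrow at 12 h. The probe set shared by Hoxb8 and Hoxb7 had group means of 4.83 to 5.11, and its changes over the 12 comparisons lay between -0.14 and 0.20 with adjusted p of at least 0.515 over 35556 probe sets.

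In the C cluster (chr15:102921131-103036856) and the D cluster (chr2:74668225-74765142), the span of group means was 0.21 (Hoxc5) to 0.45 (Hoxc6) and 0.22 (Hoxd8) to 0.56 (Hoxd3). Hoxd3 read 5.29 and 5.41 in untreated PLZF/RARA marrow at 6 h and 5.72 and 5.74 at 12 h. The 2 untreated arrays at 6 h thus lay below the 2 at 12 h. The share of all genes whose untreated arrays lie apart by time in either direction was not counted. With 2 arrays on each side the values do not set Hoxd3 apart, and the times were not tested against each other.

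The first question was what RA did to the clusters in leukaemias with PML/RARA. Nearly all Hox genes stayed near their untreated level, and Hoxc6 was the member called in transgenic PML/RARA marrow, at 12 h. Changes are log2 differences of RA minus untreated arrays from limma, with their SE, and a gene was called when its Benjamini-Hochberg adjusted p over all 19938 genes was below 0.05. At 6 h, 0 of 37 members were called by limma and 1 had an unadjusted p below 0.05, whereas 14.3% of all genes were called. At 12 h, 1 of 37 was called and 2 had an unadjusted p below 0.05, against 21.6% of all genes called. Estimates lay above 0 for 34 members and 57% of all genes at 6 h (median 0.07, against 0.02 over all genes). At 12 h they lay above 0 for 26 members and 46.5% of all genes (median 0.04 against -0.01). The mean lower quartile of the arrays was 5.36 in untreated and 5.43 in RA arrays at 6 h, and 5.48 and 5.49 at 12 h. After quantile normalization the medians of the members were 0.05 and 0.01, against 0.02 and -0.03 over all genes.

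Hoxc6, a mid-cluster gene (chr15:102998226-103011882), read 5.41, 5.13, 5.21 and 5.23 in the untreated PML/RARA arrays at 12 h. The 8 RA arrays read 5.31 to 5.83, with a median of 5.43. The treated arrays were mostly the higher ones, but the groups overlapped because untreated replicate 1 read as high as several RA arrays. Hoxc6 rose by 0.24 ± 0.08 (95% interval 0.07 to 0.40, 1.18-fold; adjusted p = 0.0334). Leaving out single arrays took the adjusted p above the threshold for untreated replicates 2 (0.20, adjusted p = 0.137), 3 (0.23, 0.091) and 4 (adjusted p = 0.0815) and for RA replicates 2 (0.0513), 3 (0.054) and 4 (0.19, 0.0759). Without untreated replicate 3 Hoxa5 was called in its place, so that the count stayed at 1. With the 2 groups alone in the fit it was 0.0726. The change of Hoxc6 was 0.07 ± 0.08 at 6 h (adjusted p = 0.685), 0.18 and -0.11 in PLZF/RARA, 0.00 and 0.00 in viral Pml wild type and 0.07 and 0.07 in viral Pml null. In the same PML/RARA groups at 12 h the mean of the stem and progenitor markers (6 of 8 measured) was 8.26 to 8.48 in untreated and 7.59 to 7.86 in RA arrays, and that of the erythroid markers (3 of 6) 7.84 to 8.55 and 8.23 to 9.53. Of these markers 1 stem marker rose and 3 fell, and 3 of 3 erythroid markers rose; 1 of 4 monocyte and 1 of 4 megakaryocyte markers rose. Of 9 stroma and endothelium markers 3 rose and 1 fell (array means 7.71 to 8.33 untreated and 8.04 to 8.66 after RA), and of 8 neutrophil markers 2 rose and 1 fell. Of 5 promyelocyte markers 2 rose and 2 fell. Their part in the Hoxc6 value was not tested.

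Hoxb4 came closest to a call at 6 h. Untreated PML/RARA arrays read 5.28, 5.51, 5.56 and 5.49 and RA arrays 5.55 to 5.84, with a median of 5.73. Of the 8 RA arrays 7 lay above the highest untreated one. The change of 0.25 ± 0.09 had an adjusted p of 0.0567 and that at 12 h, 0.15 ± 0.09, one of 0.288. In the other leukaemias the change of Hoxb4 was 0.13 and 0.28 (adjusted p = 0.257 at 12 h) in PLZF/RARA, -0.08 and -0.02 in viral Pml wild type and -0.03 and 0.06 in viral Pml null. Hoxb1 changed by 0.04 ± 0.07 and 0.11 ± 0.07 in PML/RARA and Hoxa5 by 0.08 ± 0.09 and 0.20 ± 0.09 (adjusted p = 0.112 at 12 h), and neither passed.

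**Figure D3:**
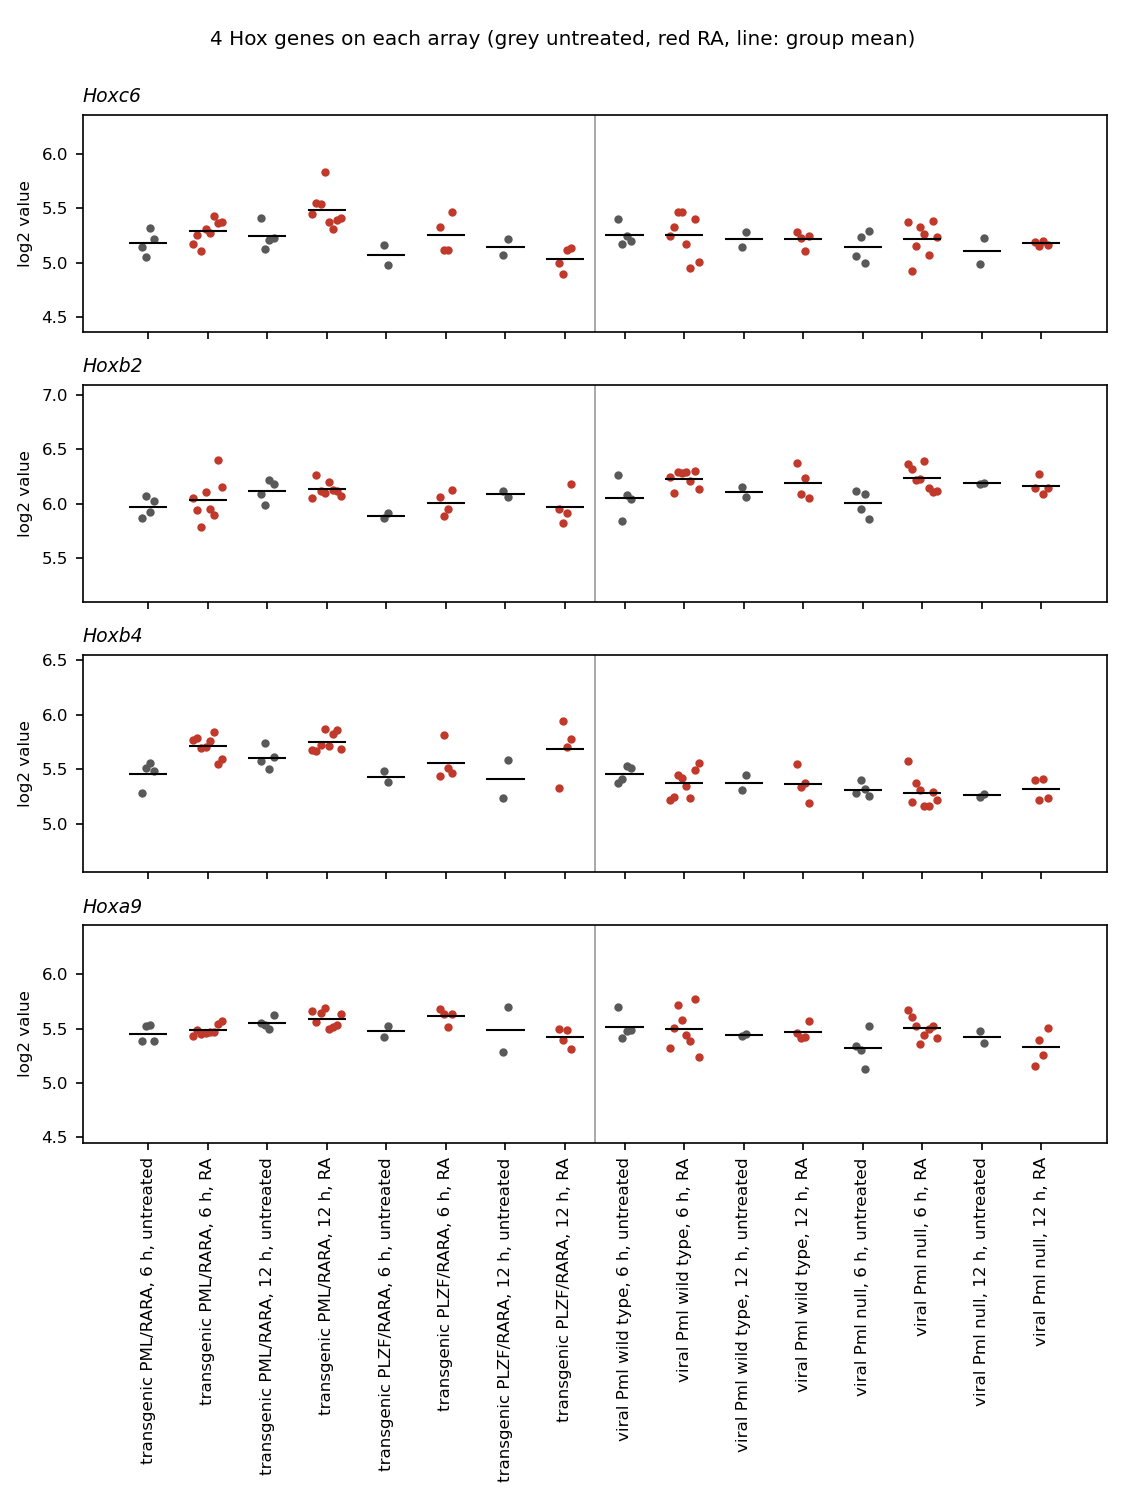
Log2 values of Hoxc6, Hoxb2, Hoxb4 and Hoxa9 on each of the 72 arrays (points) in the 16 groups (x axis), with group means as horizontal lines; each y axis spans 2 log2 units. For each gene the ranges of treated and untreated arrays overlap in all 8 pairs of groups, and 7 of the 8 RA arrays of Hoxb4 in transgenic PML/RARA at 6 h sit above the highest untreated one (5.56).

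Patients whose APL carries PLZF/RARA are known for a poor response to RA. In this leukaemia 0 of 37 Hox genes were called at either time by limma, against 2.20% of all genes at 6 h and 4.03% at 12 h. At 6 h 3 members had an unadjusted p below 0.05 with a rise, and at 12 h 1 with a rise and 3 with a fall. The estimates leaned up at 6 h, with 33 members and 66.1% of all genes above 0 and a median of 0.12 (0.06 over all genes). They leaned down at 12 h, with 6 members and 36.8% of all genes above 0 and a median of -0.09 (-0.05 over all genes). The mean lower quartile of the arrays moved the same way, from 5.36 in untreated to 5.44 in RA arrays at 6 h and from 5.47 to 5.40 at 12 h. After quantile normalization the medians of the members were 0.06 and -0.07, against 0.02 and -0.05 over all genes.

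Hoxb9 had the widest span of group means among the members, and neither of its RA changes in PLZF/RARA passed. At 6 h the untreated arrays read 5.99 and 6.40 and the RA arrays 6.50 to 6.66; at 12 h the untreated arrays read 6.75 and 6.8 and the RA arrays 6.49 to 6.63. The RA arrays were alike at both times, and it was the 2 untreated arrays that were low at 6 h and high at 12 h. Treated and untreated arrays did not overlap at either time, which with 2 against 4 arrays held for 17.9% of all genes at 6 h and 23.5% at 12 h. The changes were 0.35 ± 0.10 (adjusted p = 0.0647) and -0.20 ± 0.10 (adjusted p = 0.346). Hoxb1 in PLZF/RARA read 6.84 and 6.91 untreated and 6.43, 6.53, 6.73 and 6.67 after RA at 12 h, also without overlap, with a difference of -0.28 ± 0.10 (adjusted p = 0.123), and differed by 0.03 ± 0.10 at 6 h. Hoxd10 at 6 h (0.31 ± 0.14, adjusted p = 0.278) was the estimate with the widest upper bound, 0.59; its untreated arrays read 5.26 and 5.54 and its RA arrays 5.52 to 6.03, overlapping. Leaving out 1 array brought a call in 3 cases: Hoxb9 at 6 h without untreated replicate 2, Hoxa3 at 6 h without RA replicate 3 and Hoxb4 at 12 h without RA replicate 1, each raising the count of members called from 0 to 1.

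In the viral model the RA effect was asked separately for the 2 Pml backgrounds. In Pml wild type marrow 0 of 37 members were called by limma at 6 h and 0 at 12 h, against 9.88% and 6.10% of all genes, and at each time 1 member had an unadjusted p below 0.05. In marrow labelled Pml null 1 of 37, Hoxb2, was called at 6 h, against 11.4% of all genes, and 5 members, all with positive estimates, had an unadjusted p below 0.05. At 12 h 0 of 37 were called and 0 had an unadjusted p below 0.05, against 6.05% of all genes. Member medians were 0.03 and 0.01 in Pml wild type and 0.06 and -0.01 in Pml null, at 6 h and 12 h.

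Hoxb2 (chr11:96351632-96354020), an early-end gene that Hoxb1 and Krox20 activate in the hindbrain, read 6.11, 5.96, 6.09 and 5.86 in the untreated Pml null arrays at 6 h. The 8 RA arrays read 6.11 to 6.39 with a median of 6.22, and 7 of them lay above the highest untreated array. Hoxb2 rose by 0.23 ± 0.07 (95% interval 0.09 to 0.38, 1.17-fold; adjusted p = 0.0311). Within batch 3 the value was 0.22 (adjusted p = 0.379) and within batch 4 it was 0.25 (adjusted p = 0.342), so that the size held in both while the call did not. The adjusted p was 0.127 without untreated replicate 2, 0.156 without untreated replicate 4, 0.0514 without RA replicate 1 and 0.0674 without RA replicate 5. It was 0.0868 (change 0.17) with the untreated arrays of both times pooled and 0.0645 with the 2 groups alone. The mean lower quartile of these groups was 5.44 in untreated and 5.48 in RA arrays, and quantile normalization left the change at 0.22 (adjusted p = 0.0347). The mean of the neutrophil markers (8 of 8) was 8.87 to 9.90 in the untreated and 8.50 to 9.55 in the RA arrays, and that of the stem markers 8.26 to 8.55 and 8.01 to 8.46, with 1 gene of each list called, both lower. Their part in the Hoxb2 value was not tested.

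The same gene in Pml wild type marrow at 6 h read 6.26, 5.84, 6.08 and 6.04 untreated and 6.10 to 6.30 after RA (median 6.26), overlapping, with a change of 0.18 ± 0.07 (adjusted p = 0.132). At 12 h the change was -0.02 in Pml null. The difference in RA effect between the backgrounds, averaged over both times, was -0.02 ± 0.09 for Hoxb2, so its call in 1 background and not in the other does not show a difference between them. Hoxc8 had the highest estimate in Pml null at 6 h (0.25 ± 0.12, adjusted p = 0.2) and Hoxa6 in Pml wild type at 12 h (0.25 ± 0.11, adjusted p = 0.249).

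**Figure D4:**
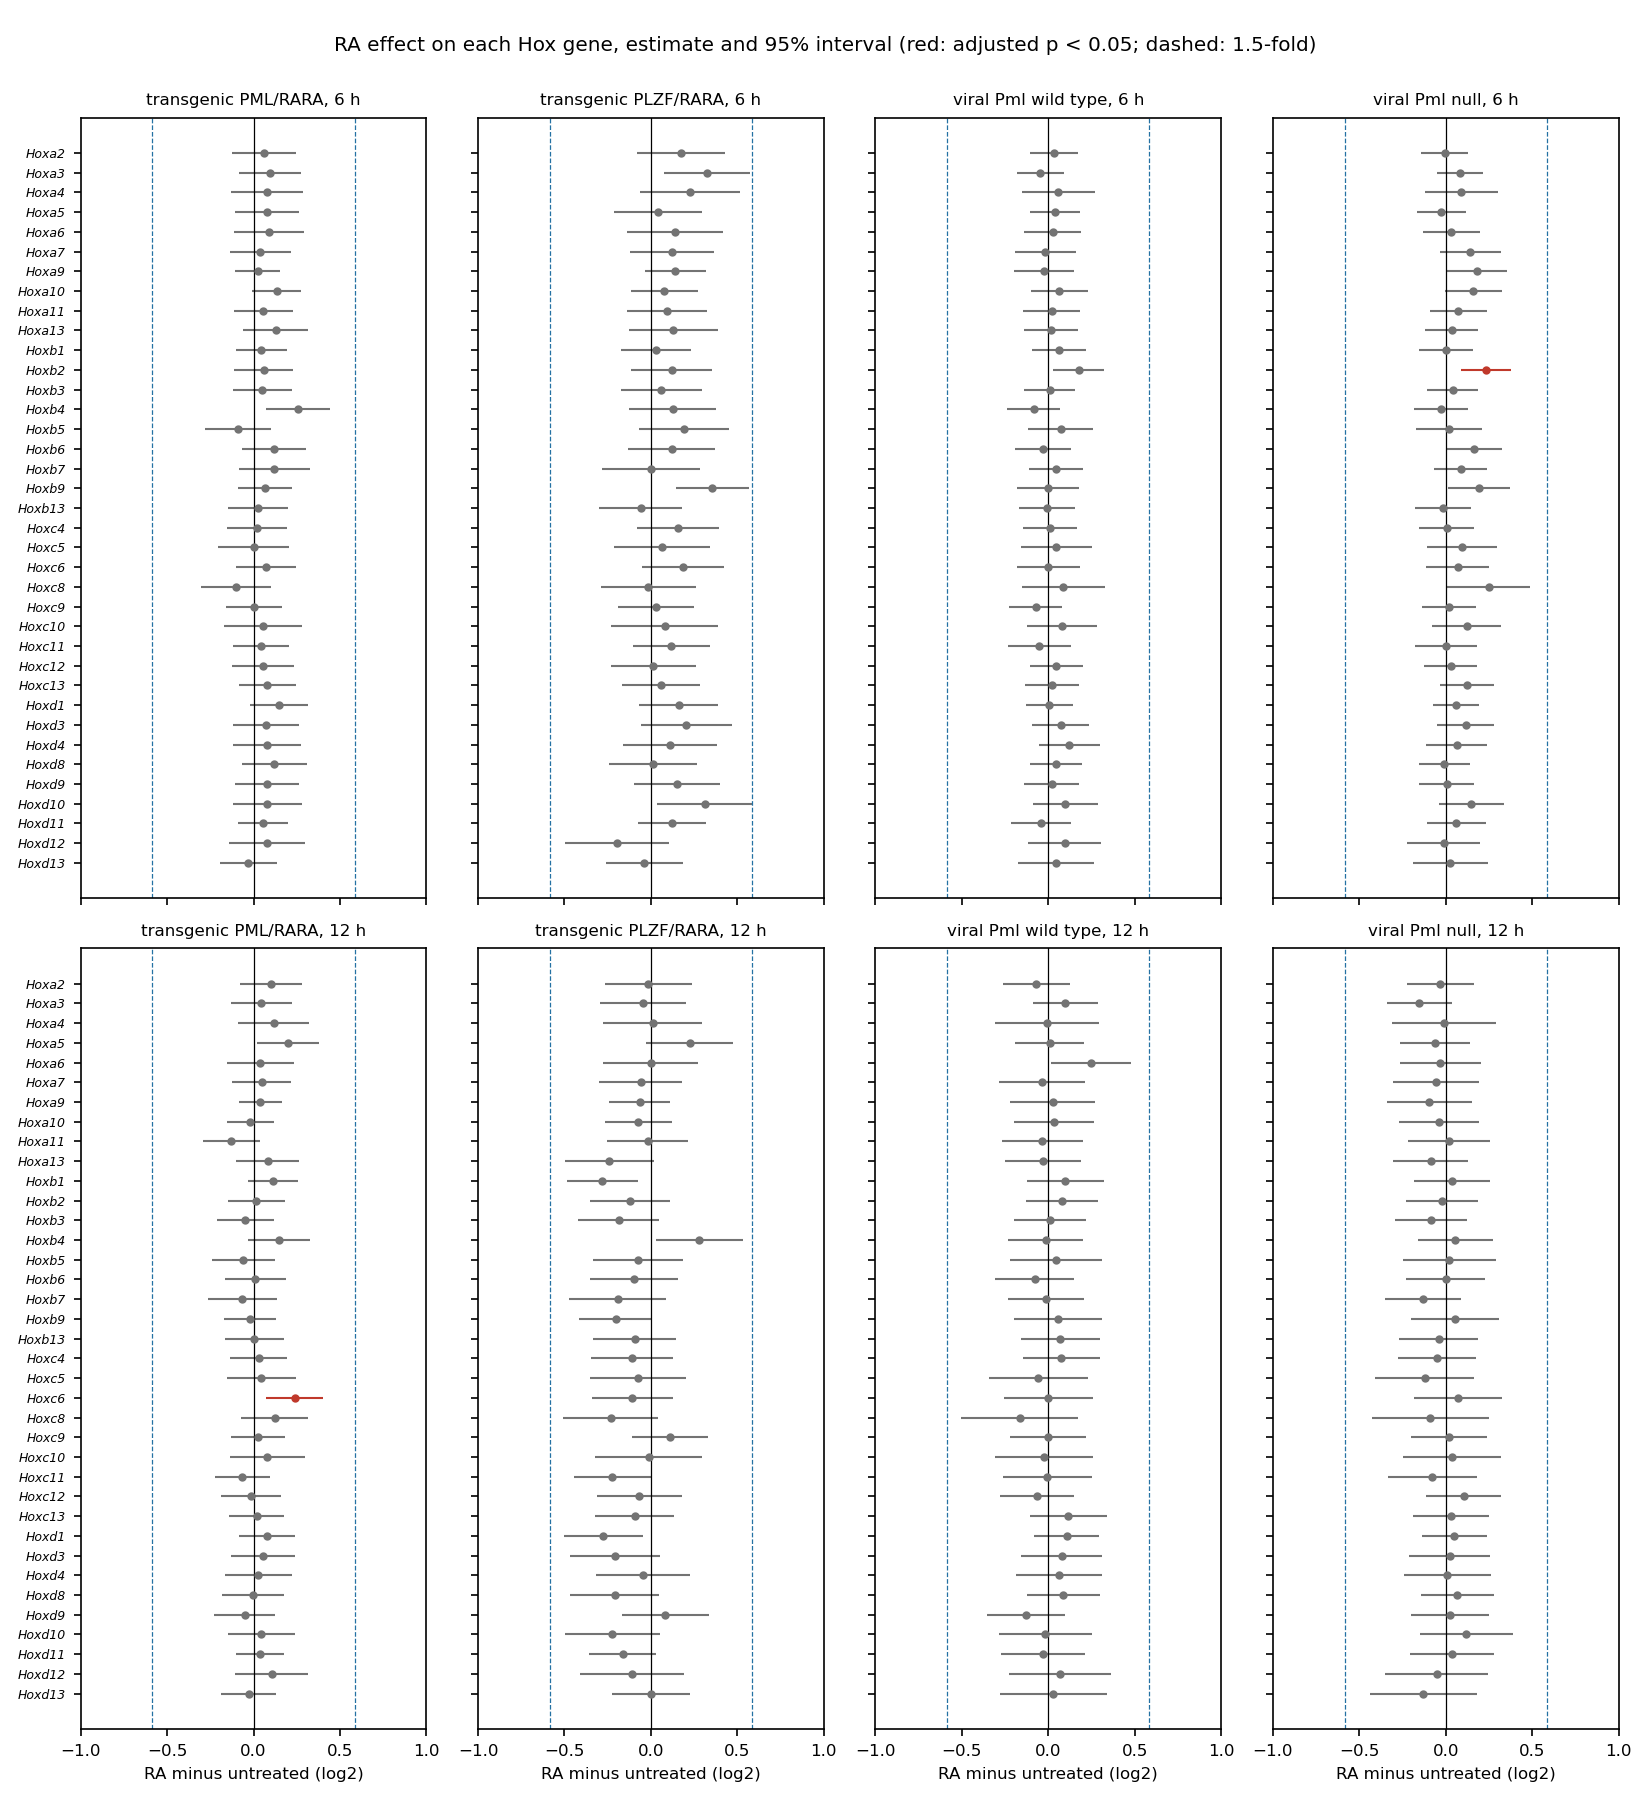
RA minus untreated log2 change with its 95% interval (x axis) for each of the 37 Hox genes (rows) in the 8 RA comparisons (panels); red marks called genes and dashed lines a change of 1.5-fold. Hoxc6 in transgenic PML/RARA at 12 h (0.24) and Hoxb2 in viral Pml null at 6 h (0.23) are red, and 295 of the 296 intervals lie inside the dashed lines.

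Because the spread was small, the intervals bound the changes closely. Of the 296 RA changes (37 genes in 8 comparisons), 295 had a 95% interval that lay within 1.5-fold in both directions; the exception was Hoxd10 in PLZF/RARA at 6 h. The largest estimate in size was 0.35. Over all genes the share with such an interval was 75.8% to 87.7% across the 12 comparisons. A bound on the array signal is a bound on the RNA only where the probe set measures the RNA, which was not tested.

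By position in the cluster, members of groups 1 to 4 (11 genes), 5 to 8 (10 genes) and 9 to 13 (16 genes) had median RA changes of 0.07, 0.08 and 0.06 in PML/RARA at 6 h. In PML/RARA at 12 h they were 0.06, 0.04 and 0.01. In PLZF/RARA the medians were 0.16, 0.09 and 0.09 at 6 h and -0.11, -0.09 and -0.08 at 12 h. Viral Pml wild type marrow gave 0.03, 0.04 and 0.02 at 6 h and 0.07, -0.01 and 0 at 12 h. Viral Pml null marrow gave 0.06, 0.08 and 0.05 at 6 h and -0.01, -0.04 and 0.02 at 12 h. By cluster, the medians for A, B, C and D were 0.08, 0.06, 0.04 and 0.08 in PML/RARA at 6 h and 0.14, 0.12, 0.06 and 0.12 in PLZF/RARA at 6 h. These are descriptions with no test, and the genes of a cluster share the same arrays.

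Whether the fusions differed in their RA effect on the clusters was asked by the difference of the changes, averaged over 6 h and 12 h. No member of the 37 was called by limma (1 had an unadjusted p below 0.05), against 7.42% of all genes. The differences, PML/RARA minus PLZF/RARA, ran from -0.13 (Hoxb5) to 0.24 (Hoxd12), and the smallest adjusted p was that of Hoxb1 (0.20 ± 0.09, adjusted p = 0.166). Between Pml null and Pml wild type 0 of 37 members were called and 0 had an unadjusted p below 0.05, against 1.13% of all genes, and the differences ran from -0.14 (Hoxa6) to 0.14 (Hoxb6).

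Untreated marrow of the 2 transgenic fusions differed widely, with 25.3% of all genes called, yet 0 of 37 Hox genes were called by limma and 3 had an unadjusted p below 0.05. Hoxa5 had the highest estimate: 8 untreated PML/RARA arrays read 4.51 to 5.04 (median 4.83) and 4 PLZF/RARA arrays 4.55 to 4.77 (median 4.63), overlapping, with a difference of 0.22 ± 0.09 (adjusted p = 0.0844). Hoxa5 was called without untreated PML/RARA replicate 4 at 12 h, which took the count from 0 to 1. Untreated Pml null and Pml wild type marrow differed in 20.8% of all genes and in 0 of 37 Hox genes, with 0 at an unadjusted p below 0.05; the estimates ran from -0.22 (Hoxc8) to 0.10 (Hoxa6). All 148 intervals of these 4 comparisons lay within 1.5-fold. Set side by side without a test, the group means of the transgenic and viral models overlapped for every member: 0 of 37 were separate, against 4.90% of all genes.

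The partners of the Hox proteins were called in several comparisons. The TALE homeodomain proteins of the Meis, Pbx and Pknox families bind DNA together with Hox proteins, and 8 of 9 listed genes were measured. Between untreated PML/RARA and PLZF/RARA marrow 2 of the 8 were higher and 2 lower, against 25.3% of all genes called in either direction, and likewise between Pml null and Pml wild type, against 20.8%. Cell type markers differed in the same comparisons. In PML/RARA against PLZF/RARA 4 of 5 promyelocyte, 3 of 3 erythroid, 5 of 9 stroma and 3 of 8 neutrophil markers were higher, and 4 of 6 T and NK cell markers were higher and 1 lower. Of the monocyte markers 3 were higher and 1 lower, as were the megakaryocyte markers, 2 of 5 B cell markers were higher, and 1 of 6 stem and progenitor markers was lower. In Pml null against Pml wild type 8 of 8 neutrophil markers were lower, with a median difference of -2.36, and 3 of 4 monocyte markers were lower. There 3 stem and progenitor markers were higher and 1 lower, 2 promyelocyte markers higher and 3 lower, and 2 B cell markers higher. Their part in the values of the cofactors was not tested. Pbx3, a Hoxa9 partner in leukaemia, read 9.52 to 10.09 in 8 untreated PML/RARA arrays and 8.37 to 8.73 in 4 PLZF/RARA arrays, with no overlap and a difference of 1.20 ± 0.14 (adjusted p = 1.16e-08). It was also higher in Pml null than in Pml wild type marrow, by 0.81 ± 0.13 (adjusted p = 1.64e-05). After RA, where 1 cofactor rose and 1 fell in PML/RARA at 12 h against 21.6% of all genes called, Pbx3 fell by 0.60 ± 0.13 in PML/RARA at 12 h (adjusted p = 0.000876).

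Meis1, the cofactor that speeds Hoxa9-driven leukaemia in mice, read 5.88 to 6.12 in untreated PML/RARA and 5.44 to 5.68 in PLZF/RARA marrow. These ranges did not overlap, and the difference was 0.41 ± 0.09 (adjusted p = 0.000851). No RA change of Meis1 passed the test. Pknox2 showed the widest gap: 6 untreated Pml wild type arrays read 9.70 to 10.33 and 6 Pml null arrays 5.19 to 5.62, a difference of -4.68 ± 0.19 (adjusted p = 9.24e-19). In the transgenic model Pknox2 was lower in PML/RARA, by -0.97 ± 0.11 (adjusted p = 8.9e-09). Pbx4 differed by -1.48 ± 0.14 between the fusions (adjusted p = 1.33e-10), and Meis3 by -1.13 ± 0.08 between Pml null and wild type (adjusted p = 2.21e-12).

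**Figure D5:**
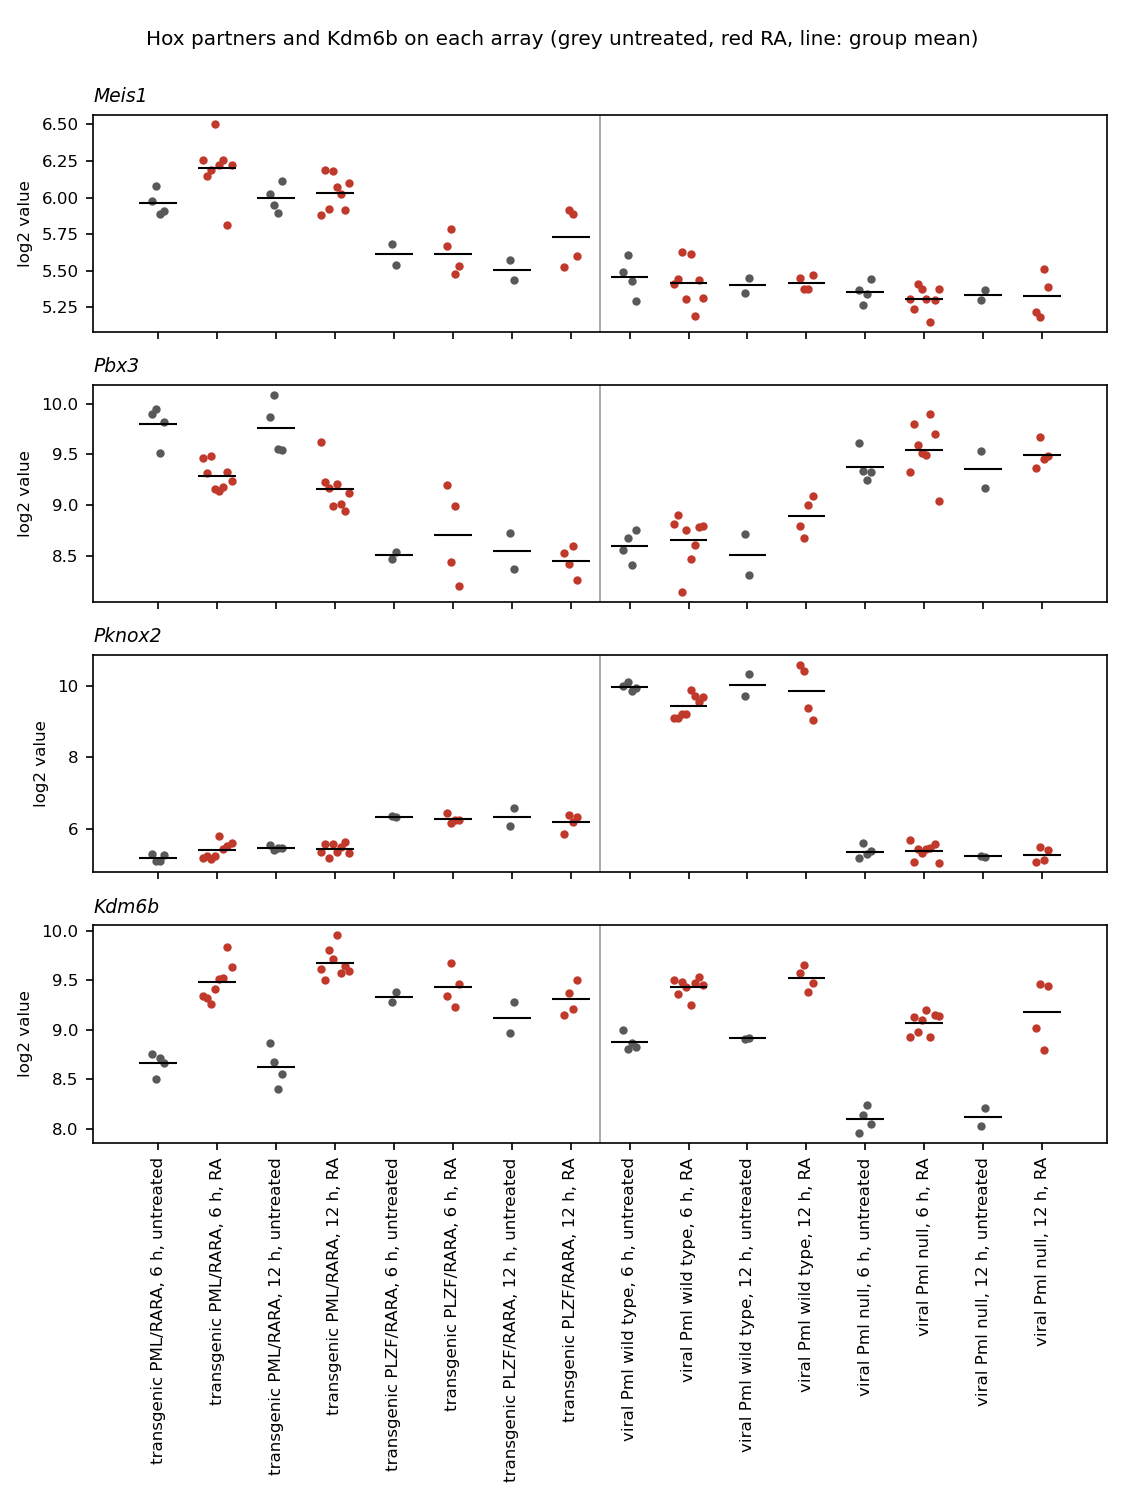
Log2 values of Meis1, Pbx3, Pknox2 and Kdm6b on each of the 72 arrays (points) in the 16 groups (x axis), with group means as horizontal lines. Pknox2 separates viral Pml wild type (9.70 to 10.33 untreated) from Pml null (5.19 to 5.62), the untreated arrays of Pbx3 are higher in transgenic PML/RARA (9.52 to 10.09) than in PLZF/RARA (8.37 to 8.73), and Kdm6b sits higher after RA in the PML/RARA leukaemias.

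Members of the complexes that keep Hox chromatin active or silent were called too. Of the MLL and menin complex with its elongation partners and the Cdx activators (17 of 18 measured), 1 gene rose and 4 fell in transgenic PML/RARA at 6 h, and 1 rose and 5 fell at 12 h, against 14.3% and 21.6% of all genes called in either direction. In PLZF/RARA 0 were called at 6 h and 1 fell at 12 h, against 2.20% and 4.03%. In viral Pml wild type 2 rose and 1 fell at either time, against 9.88% of all genes at 6 h and 6.10% at 12 h. In viral Pml null 2 rose and 4 fell at 6 h, against 11.4%. At 12 h 1 rose and 0 fell, against 6.05%. In transgenic PML/RARA Psip1, which ties MLL to chromatin, fell by 0.50 ± 0.10 (adjusted p = 0.0007) and by 0.61 ± 0.10 (adjusted p = 1.66e-05), and Wdr5, a core subunit, fell by 0.51 ± 0.10 and by 0.59 ± 0.10, at 6 h and 12 h in turn. Of the Polycomb list (26 of 28 measured), which holds the repressors of silent Hox clusters and the demethylases that oppose them, 2 rose and 10 fell in transgenic PML/RARA at 6 h, and 3 rose and 8 fell at 12 h, beside the same shares of all genes. In PLZF/RARA 0 were called at 6 h, and 0 rose and 3 fell at 12 h, against 2.20% and 4.03% of all genes. In the viral leukaemias 1 rose and 1 fell at 6 h and 3 rose and 1 fell at 12 h in Pml wild type (9.88% and 6.10% of all genes called), and 4 rose and 4 fell at 6 h and 1 rose and 1 fell at 12 h in Pml null (11.4% and 6.05%). In the difference of the RA effect between the fusions 2 genes of the list were higher and 2 lower, against 7.42% of all genes. Pcgf6, a subunit of a Polycomb complex 1, fell by 0.97 ± 0.11 at 6 h in PML/RARA (adjusted p = 6.37e-08). Phf19, a recruiter of Polycomb complex 2, fell by 0.59 ± 0.12 and by 0.83 ± 0.11 in PML/RARA at the 2 times.

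Kdm6b, a demethylase that removes the Polycomb mark from histone H3, read 8.40 to 8.87 in the 8 untreated transgenic PML/RARA arrays and at least 9.50 in every RA array at 12 h. The rise was 0.78 ± 0.10 at 6 h and 1.05 ± 0.10 at 12 h (adjusted p = 5.5e-10). In Pml null it rose by 0.97 ± 0.09 and by 1.06 ± 0.13. Kdm6b was called in Pml wild type too, with rises over the alternatives of 0.54 to 0.61 at 6 h and 0.57 to 0.65 at 12 h. The difference in its RA effect, Pml null minus Pml wild type, was called, but 23 of its 43 alternatives lost the call and 20 kept it (0.38 to 0.49). In PLZF/RARA its change was 0.09 ± 0.14 and 0.18 ± 0.14, and the difference between the fusions, 0.78 ± 0.12, passed (adjusted p = 6.47e-05).

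Among 9 measured of 10 listed targets of Hoxa9 and Meis1, 0 rose and 3 fell in PML/RARA at 6 h and 0 rose and 4 fell at 12 h, against 14.3% and 21.6% of all genes called. In PLZF/RARA 0 of these targets were called at 6 h and 1 fell at 12 h, against 2.20% and 4.03% of all genes. In viral Pml wild type 3 fell at 6 h and 0 were called at 12 h by limma, against 9.88% and 6.10%. In viral Pml null 3 fell at 6 h and 1 fell at 12 h, against 11.4% and 6.05%. In transgenic PML/RARA Bcl2, which blocks cell death, fell by 0.76 ± 0.09 at 12 h (adjusted p = 1.19e-07), and Erg, a stem cell factor, by 0.54 ± 0.10 at 6 h and by 0.37 ± 0.10 at 12 h. Between untreated PML/RARA and PLZF/RARA marrow 2 of the 9 were higher and 2 lower, against 25.3% of all genes called. Between untreated Pml null and Pml wild type marrow 5 of the 9 were higher and 0 lower, against 20.8% of all genes called. Cdk6 (0.57 ± 0.09) and Myb (0.71 ± 0.11) were among these 5. Stem and progenitor markers moved the same way in PML/RARA at 12 h, 1 up and 3 down of 6 measured. They did so too in untreated Pml null against wild type, 3 up and 1 down. In the latter comparison the mean of the 8 neutrophil markers was 8.87 to 9.90 in Pml null and 11.18 to 11.96 in Pml wild type at 6 h. Their part in the target genes was not tested.

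Inside the clusters lie the miR-10 and miR-196 genes, whose products act on Hox transcripts. The mature sequences, from RefSeq, are printed with the seed, bases 2 to 8, in capitals, to show that they form 2 seed families. The miR-10 pair shares the seed ACCCUGU and the miR-196 set the seed AGGUAGU.
miR-10a-5p: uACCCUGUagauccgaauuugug
miR-10b-5p: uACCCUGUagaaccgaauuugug
miR-196a-5p: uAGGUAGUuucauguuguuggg
miR-196b-5p: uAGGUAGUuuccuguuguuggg
Mir10a lies in cluster B (chr11:96317186-96317208 for the mature arm, build GRCm38.p6), Mir10b in D (chr2:74726074-74726096), Mir196b in A (chr6:52230129-52230150), and miR-196a-5p is encoded by both Mir196a-1 in B (chr11:96265187-96265208) and Mir196a-2 in C (chr15:102973365-102973386). The arrays report the genes of these miRNAs, not the mature forms. Mir10a read 3.59 to 3.99 and Mir196b 5.29 to 5.89 over the untreated arrays of the 4 leukaemia types. None of the 5 genes was called by limma in any of the 12 comparisons, against 1.13% to 25.3% of all genes, and their smallest adjusted p was 0.0734 (Mir10b). On every array Mir10a, Mir10b, Mir196a-1 and Mir196a-2 read below 5.31, the lowest value of an array's lower quartile. Whether these probe sets read above background was not tested, so the lack of calls does not show that the RNAs were unchanged.

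Of the whole list of genes that flank the clusters or lie in them, 18 of 25 were measured, and 0 were called in PML/RARA at 6 h and 1 at 12 h, against 14.3% and 21.6% of all genes. In PLZF/RARA 0 were called at 6 h and 1 rose at 12 h, against 2.20% and 4.03%. Skap2 was called there, with rises over the alternatives of 0.48 to 0.69. At 6 h 2 fell in viral Pml wild type and 1 in viral Pml null, against 9.88% and 11.4%. At 12 h 0 were called in either background, against 6.10% and 6.05%. Between the untreated fusions 3 were higher and 2 lower of 18, against 25.3% of all genes called, and between Pml null and Pml wild type 3 were higher and 1 lower, against 20.8%, shares near those of all genes. Skap2, an adaptor protein gene beside cluster A, was higher in untreated PML/RARA than PLZF/RARA marrow by 0.67 ± 0.08 (adjusted p = 1.45e-08) and lower in Pml null than in Pml wild type by -0.47 ± 0.10 (adjusted p = 0.000466). Skap1, beside cluster B, was higher in PML/RARA by 0.73 ± 0.08 (adjusted p = 9.86e-09). Across the same 2 comparisons 0 of 37 Hox genes were called.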

How the data were processed

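The values analysed are log2 intensities that the authors deposited in the series matrix, with RMA and affy named in the submitters' processing notes, without versions; the sources used here do not state background correction or batch correction. Deposited values ran from 2.60 to 14.24, array medians from 6.56 to 6.81. The number of arrays limits precision. Probe sets with exactly 1 symbol in the platform table (21789 of 35556) were kept, the brightest per symbol, giving 19938 genes, without a filter. The annotation of positions, promoters and miRNAs is that of RefSeq (GRCm38.p6); the planned protein comparison was not run.

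For each model of 36 arrays, limma 3.58.1 in R 4.3.3 was fitted with a coefficient for every group plus batch (27 residual degrees of freedom), then eBayes; 12 two-sided contrasts were tested with Benjamini-Hochberg adjustment over all genes. The fit was tested on simulated data. Named genes were every called Hox gene, Hoxb1, Hoxb4, Hoxa5, Hoxa7, Hoxa9 and Hoxa10, Meis1 and Pbx3, and Pml, Cyp26a1 and Rarb as checks. Up to 3 called genes per list with the largest moderated statistic in a contrast described were also named. Calls kept in every alternative were preferred, where the alternatives were run. Members and lists were chosen with earlier results of these data known. Groups came from the labels, replicate numbers from accession order. The alternatives are described at the end of the text.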

Additional observations from a re-analysis of the deposited data

Results flagged for a closer look

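In 8 genes and their groups of 4 or 8 arrays, 96 pairs of gene and group were examined for an array far from the others by Dixon's ratio, and 4 met the 95% limit. Chance gives about 1 in 20. Hoxc6 read 5.83 on RA replicate 4 of transgenic PML/RARA at 12 h, against 5.31 to 5.55 on the other 7 arrays of the group in which Hoxc6 was called. Hoxa7 read 6.54 on RA replicate 3 of viral Pml wild type at 12 h against 6.39 to 6.42 on the others. Hoxa10 read 5.57 on RA replicate 1 of transgenic PLZF/RARA at 6 h against 5.63 to 5.64. Hoxb1 read 7.13 on untreated replicate 1 of viral Pml wild type at 6 h against 6.85 to 6.89.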

How the results depend on the processing

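The alternatives were no batch term, quantile normalization, the mean of all probe sets of a symbol, leaving out genes below the 25th percentile, eBayes with trend and robust, untreated arrays of both times pooled, single batches, the groups of a contrast alone, and leaving out each array. The 12 counts of called members gave 263 alternative values, of which 236 kept the count and 27 moved. In transgenic PML/RARA treated for 6 h the count went from 0 to 1 (Hoxb4) with no batch term, with the 25th percentile filter, in batch 2 alone and with the groups alone. At 12 h it went from 1 to 0 with the filter, which left 22 members and not Hoxc6, and with the groups alone, and to 2 (Hoxb4 and Hoxc6) with pooled untreated arrays. For viral Pml null at 6 h it went from 1 to 0 with pooled untreated arrays, in batch 3 alone, in batch 4 alone and with the groups alone. For untreated PML/RARA against PLZF/RARA it went from 0 to 1 (Hoxb5) with the groups alone. Leaving out 1 array gave 0 to 1 called members for PML/RARA at 6 h (1, Hoxb4, without RA replicate 7 or 8) and at 12 h, for PLZF/RARA at 6 h and at 12 h, for Pml null at 6 h and for the untreated fusions; where a single array remained, it was taken to vary like the other groups. The cause of these moves was not tested, except that fewer genes were tested with the filter. Over its 19 alternatives the change of Hoxc6 was 0.19 to 0.29 with adjusted p of 0.0077 to 0.137, and over its 21 the change of Hoxb2 was 0.17 to 0.27 with adjusted p of 0.0227 to 0.379. Of the 1482 alternative values for single genes of the text and their lists, 1317 kept their call, 165 lost it and 0 reversed. Pcgf6, Myb and Skap1 were not among these genes, so their calls were not put through the alternatives. No paired analysis was possible because the titles number every array as replicate 1, and the serial numbers they also carry differ on every array and are not said to mark a shared animal, litter or day.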
